A study of Rattus norvegicus with 5 samples.

Results

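Interleukin-6 family signalling was described here through 8 genes: the ligands Il6, Lif and Il11, the receptors Il6r, Il6st and Osmr, the transcription factor Stat3 and its feedback inhibitor Socs3. A probe was taken for a gene when its RefSeq accession mapped to that gene, and the brightest probe would have stood for a gene with several. Each of the 8 genes had 1 probe (8 probes), so all 8 were found among 15442 named genes on the array.

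The tumours were grown from C6-L cells, a rat glioma line, in nude mice of the BALB/c nu/nu strain labelled as 6 weeks of age. RNA came from 3 metastatic lung nodules and 1 γ-irradiated primary tumour, both taken 6 weeks after irradiation, and from 1 primary tumour that was not irradiated, taken 6 weeks after grafting. Each sample was hybridised to 1 single-colour Agilent rat array, so each primary is 1 array, and no label ties a nodule to a host animal. P-values against each primary therefore rest on the spread between these 3 nodules, which is taken to hold for the primaries as well. For each gene the fit draws that spread towards the trend over all features of like intensity. Where both primaries form 1 group, the spread between them enters too. All groups share the tumour line and the host strain, and nude mice lack mature T cells of the thymus but keep macrophages, NK cells, vessels and stroma. The probes were designed for rat, and how much mouse RNA they bound was not tested.

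Cytokines of this family signal through gp130, the shared receptor subunit encoded by Il6st, paired with a receptor chain that differs between ligands. Janus kinases bound to the receptor then phosphorylate Stat3, which moves to the nucleus and induces target genes, among them Socs3, whose protein blocks the kinases and limits the signal. In gliomas the pathway is known for its links to growth, inflammation and a mesenchymal state. Stat3 acts through its phosphorylation, which an RNA level does not report.

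The 5 arrays lay on 1 slide, with nodules in one row and both primaries in the other, so slide row and tumour site cannot be told apart. Between 69.8 and 73.5% of gene spots were well above background on an array and 0 were saturated. Levels below are log2 spot signals minus the 75th percentile of their own array, so a level is comparable between arrays for 1 gene and not between genes. Markers of other tissues differed between the samples. Sums of markers cover tested genes, those well above background on every array of at least 1 group. Summed linear levels of the 9 tested of 10 measured skeletal muscle genes were 5.01 to 5.79 in the nodules. They were 156.7 in the irradiated and 35.5 in the non-irradiated primary. Myh1, not well above background on any array, was left out. Sums of the 4 tested of 7 alveolar and club cell genes were 43.4, 14.3 and 0.234 in nodules 1, 2 and 3. They were 0.263 in the irradiated and 0.625 in the non-irradiated primary. Sftpa1, Sftpb and Scgb3a2, each well above background in 2 nodules, were not tested and lie outside these sums. The 5 tested of 6 cardiac muscle genes summed to 4.52, 2.13 and 43.2 in nodules 1, 2 and 3. They summed to 4.53 in the irradiated and 5.38 in the non-irradiated primary. Nppa, well above background in nodule 3 only, was left out. Of 10 glioma and glial markers, 8 were tested. Against the non-irradiated primary 6 were lower and 2 higher in the nodules. There 2 had an adjusted p under 0.05, beside 18.6% of all features. These were Nes, lower by -2.43 (adjusted p = 0.0364 in limma), and Sox10, lower by -4.90 (adjusted p = 0.0365). Against the irradiated primary 4 were higher and 4 lower, and 0 had an adjusted p under 0.05. Slc1a3 and Vim were higher in all 3 nodules than in both primaries. Gfap and Olig2 were not well above background on any array, while 7 or 8 of the others were on each. In bulk tissue, fewer cells of a type and less RNA per cell cannot be told apart.

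Osmr was too dim to be tested, and none of the other 7 members passed the test in the comparison with the irradiated primary, where 3.73% of 18899 features were called (0.91% higher and 2.81% lower in the nodules). At an unadjusted p under 0.05 the count was 2 of 7, Il6 and Stat3, where 22% of all features passed. Against the non-irradiated primary 0 of 7 were called, beside 18.6% of features (9.74% higher and 8.84% lower). At an unadjusted p under 0.05 it was again 2 of 7, Lif and Stat3, beside 36.9% of features. The test was limma with Benjamini-Hochberg adjustment over all features. Both comparisons share the nodules. The median log2 difference of the 7 members was 0.09 against the irradiated primary (0.03 over all features) and -0.16 against the non-irradiated primary (0.04 over all features).

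**Figure D1:**
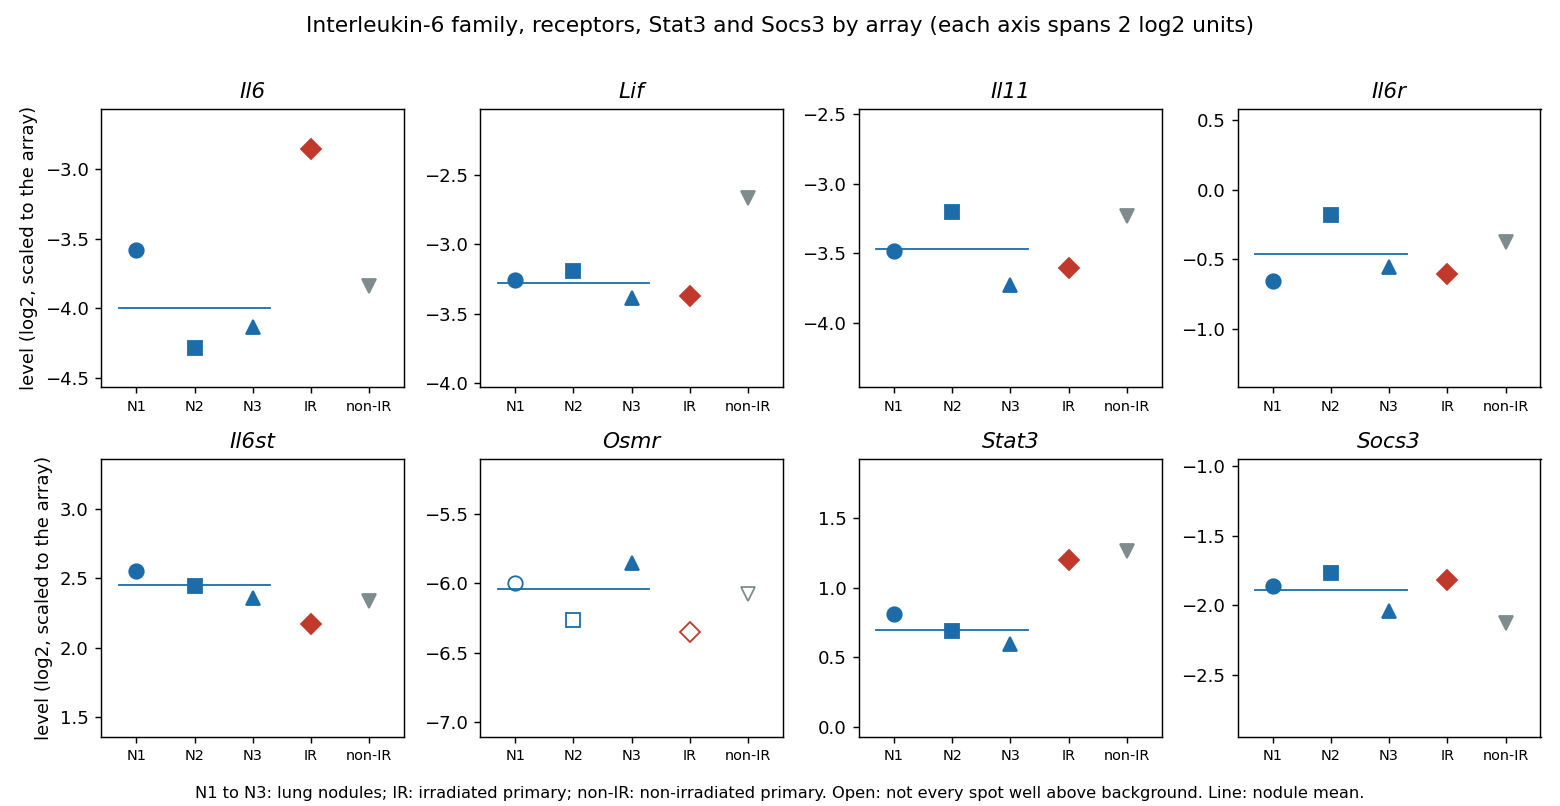
Levels of the 8 members on each array (y axis, log2 signal scaled to the array's 75th percentile, every axis spanning 2 log2 units), with nodules 1 to 3 left of the irradiated (IR) and the non-irradiated (non-IR) primary. Lines are nodule means and open symbols mark arrays where not every spot was well above background. Il6 stands highest in the irradiated primary, and Stat3 is lower in the 3 nodules than in both primaries.

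Il6, the ligand that gives the family its name, is a cytokine of inflammation made by tumour, stromal and immune cells. Its gene lies at chr4:5889999-5894575 of the GRCr8 assembly. The 250 bases before its annotated start, on the minus strand at chr4:5894576-5894825, are shown because this proximal promoter holds the sites through which inflammatory signals are known to act on the human gene. Capitals mark matches to a cyclic-AMP response element (TGACGTCA) and to an NF-kB-like motif (GGANNTTCC), in that order. The sequence is credited to RefSeq.
Il6: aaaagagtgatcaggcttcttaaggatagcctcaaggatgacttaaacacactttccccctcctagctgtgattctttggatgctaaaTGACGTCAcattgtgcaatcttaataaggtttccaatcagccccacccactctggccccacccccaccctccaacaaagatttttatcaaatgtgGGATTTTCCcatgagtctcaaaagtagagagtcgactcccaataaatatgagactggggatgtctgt

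The first match runs from 162 to 155 bases before the start and the second from 67 to 59, with no overlap. Over 33469 rat promoter windows of this length, searched on both strands, 1.59% held TGACGTCA and 3.36% held GGANNTTCC. A STAT motif, TTCNNNGAA, was in 7.67% of windows and in 0 of the 7 members with an entry (all but Lif). Some of those windows, such as that of Socs3, reach into the annotated gene, so they do not cover the same upstream bases in every member. In all, 13 patterns were tried and these 3 were kept after their matches had been seen, and the matches are letters in a window, not sites.

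The Il6 level was -3.58, -4.28 and -4.14 in nodules 1, 2 and 3, against -2.85 in the irradiated primary. All 3 nodules were below that tumour, and the mean difference was -1.15 on the log2 scale (95% interval -2.06 to -0.24, 2.22-fold lower), with an adjusted p of 0.159 in limma. The size of this difference exceeded that of 91.3% of features, but the nodules themselves spread over 0.70, nodule 1 being the highest. When a nodule was left out the adjusted p in limma ran from 0.0153 to 0.385. It passed only without nodule 1, at a difference of -1.36, in a fit that called 3188 of 18899 features in place of 704. With a normexp background correction it was -0.71, and it did not pass.

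In the non-irradiated primary the Il6 level was -3.84, inside the range of the nodules. The difference from it was -0.16 (95% interval -1.07 to 0.75, adjusted p = 0.775 in limma). The irradiated primary was thus the one array that stood apart for Il6. It exceeded the non-irradiated primary by 0.99 (1.99-fold), a difference with no replicates that falls just under the fold of 1 on the log2 scale used to count features. The 3 pairs of nodules differed by 0.70, 0.56 and -0.15 for the same gene, the first being nodule 1 minus nodule 2.

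Il6 is read by 10 spots on each array, which show how far the measurement itself could blur these levels. In the irradiated primary its spots lay between -3.002 and -2.75, above every spot of the other arrays. Spots of nodule 1 ran from -3.79 to -3.29 and those of the non-irradiated primary from -4.31 to -3.55, so these ranges overlap. Nodules 2 and 3 overlapped too, at -4.46 to -4.12 and -4.38 to -3.97. The spot standard deviation on an array was 0.08 to 0.24. Spots of 1 array share their RNA and are no replicates of a tumour.

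**Figure D2:**
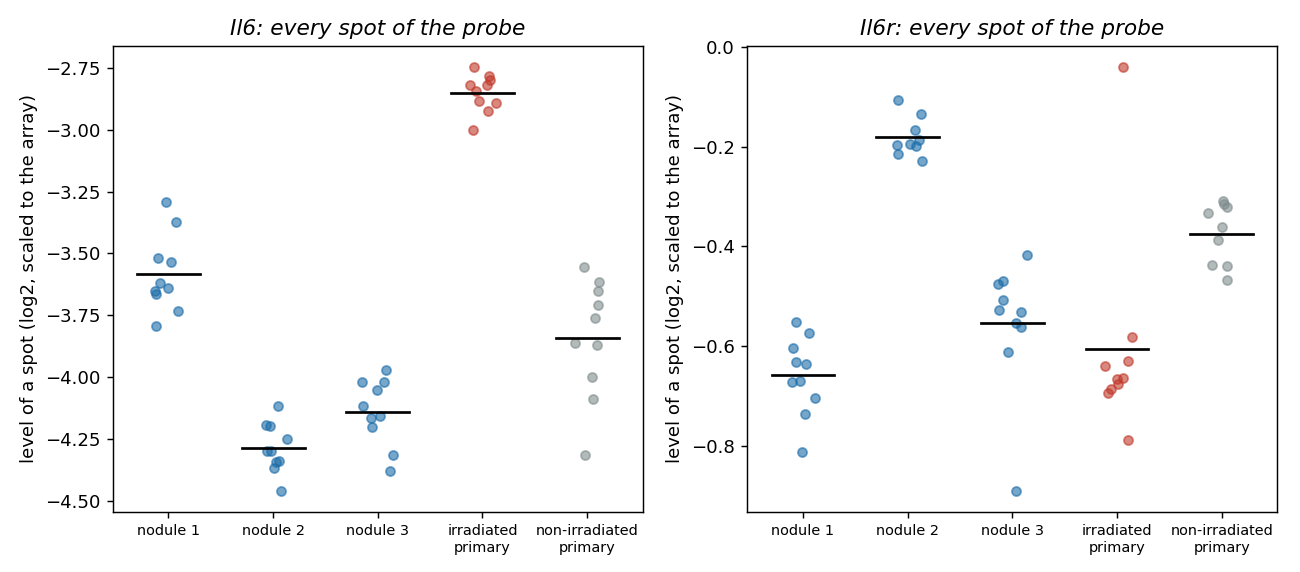
Every spot of the Il6 probe (left panel) and the Il6r probe (right panel) on the 5 arrays (y axis, log2 level scaled to the array), with black lines at the mean of an array's 9 or 10 spots. The Il6 spots of the irradiated primary, -3.002 to -2.75, do not overlap those of any other array, while for Il6r the irradiated primary holds 1 spot at -0.04 far above the rest.

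Some markers of other cells were also highest in the irradiated primary. Skeletal muscle genes had their highest sum there (156.7), and their sum in the non-irradiated primary was above all 3 nodules too. The Il6 level of the non-irradiated primary was above nodules 2 and 3 and below nodule 1. The sum of the 5 tested of 8 T and NK cell genes was 0.261 to 0.383 in the nodules. It was 0.772 in the irradiated and 0.413 in the non-irradiated primary. On the arrays of the 3 nodules 3 of those 8 genes were well above background, against 5 in the irradiated and 3 in the non-irradiated primary, and Cd3e, Cd3g and Prf1 were not on any array. Of the tested genes in that list, Cd2, Cd7 and Gzmb were highest in the irradiated primary, and Cd3d and Nkg7 were not. Cd2 and Gzmb were well above background on that array alone and entered the sum through it, which favours a higher sum there. The 9 macrophage genes summed to 5.29 to 6.60 in the nodules, against 6.09 in the irradiated and 5.17 in the non-irradiated primary. Nodule 1 had the highest Il6 level of the nodules. Among the nodules it also had the highest sums of alveolar and club cell, macrophage, endothelial and fibroblast genes. Sums of the remaining marker lists were highest in nodule 2 or 3. The alveolar and club cell sum was 14.3 in nodule 2, which had the lowest Il6 level, and 0.263 in the irradiated primary. The part of any of these in the Il6 level was not tested.

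Of 5926 named genes with at least 50% of the log2 range of Il6, the 5 whose profile over the 5 arrays came closest included Gaa, Tnfsf15, Ccn2 and Plaat3. Their root mean square difference from the centred Il6 profile was 0.0966 to 0.129 on the log2 scale, and these 4 were well above background on all 5 arrays. Tnfsf15, a cytokine of the tumour necrosis factor family, had levels of -4.12, -4.68 and -4.69 in nodules 1, 2 and 3, against -3.58 in the irradiated and -4.47 in the non-irradiated primary. Ccn2, a matrix-associated growth regulator, had levels of 3.50, 3.02 and 3.12 in the nodules, against 4.21 in the irradiated and 3.53 in the non-irradiated primary. With 5 arrays, many genes can share a profile.

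Lif, which signals through Lifr and gp130 and is known for keeping stem cells undifferentiated, lies at chr14:83354602-83364053. Its level was -3.26, -3.20 and -3.39 in nodules 1, 2 and 3, against -3.37 in the irradiated and -2.67 in the non-irradiated primary. The non-irradiated primary was the high array, and the irradiated primary fell among the nodules. Against the non-irradiated primary the difference was -0.61 (95% interval -1.15 to -0.07, 1.53-fold lower), with an adjusted p of 0.105 in limma. Against the irradiated primary it was 0.09 (-0.45 to 0.63, adjusted p = 0.837).

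The primaries themselves differed in Lif by -0.70, the irradiated one being lower by 1.63-fold, while the nodules spread over 0.19. Il6 and Lif thus ran opposite ways between the 2 primaries, Il6 being higher and Lif lower in the irradiated tumour. Neither reached the fold of 1 used to count features, which 16.4% of 18437 features did (9.31% higher and 7.13% lower in the irradiated primary). No member of the 7 reached it, beside 6.98, 9.34 and 3.59% of features past the same fold between the pairs of nodules.

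Il11, which signals through Il11ra1 and gp130 and acts on stroma and blood cell precursors, lies at chr1:78098622-78104915. The level was -3.48, -3.20 and -3.73 in nodules 1, 2 and 3, against -3.61 in the irradiated and -3.23 in the non-irradiated primary. Both primaries lay inside the range of the nodules. The differences were 0.14 against the irradiated primary (95% interval -0.60 to 0.87, adjusted p = 0.819 in limma) and -0.24 against the non-irradiated primary (-0.97 to 0.50, adjusted p = 0.587). These intervals leave room for a change of nearly 2-fold either way, so the arrays do not show that Il11 was level.

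Among the receptors, Il6r encodes the chain that binds interleukin-6 and can also be shed as a soluble form, and it lies at chr2:177582020-177646705. Its level was -0.66, -0.18 and -0.55 in nodules 1, 2 and 3, against -0.61 in the irradiated and -0.37 in the non-irradiated primary. Nodule 2 was the high array, and both primaries lay within the nodules' range. The difference was 0.14 against the irradiated primary (95% interval -0.46 to 0.74, adjusted p = 0.765 in limma) and -0.09 against the non-irradiated primary (-0.69 to 0.51, adjusted p = 0.808). Both were smaller than the 0.48 by which nodules 1 and 2 differed.

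That gap between nodules was larger than the scatter of the probe. The 9 spots used in nodule 2 lay between -0.23 and -0.11, above all 10 spots of nodule 1, which lay between -0.81 and -0.55. In the irradiated primary 1 spot at -0.04 lay apart from the others, and the spot standard deviation was 0.21, against 0.06 in the non-irradiated primary.

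Il6st encodes gp130, which every ligand of the family needs, and lies at chr2:45798872-45839501. Its level was 2.55, 2.44 and 2.36 in nodules 1, 2 and 3, against 2.17 in the irradiated and 2.34 in the non-irradiated primary. All 3 nodules were above both primaries, nodule 3 by only a narrow margin over the non-irradiated tumour. Such a full separation upwards was seen in 22.3% of features, and one in either direction in 41.5%. The differences were 0.28 (95% interval -0.06 to 0.62, adjusted p = 0.293 in limma) against the irradiated and 0.11 (-0.22 to 0.45, adjusted p = 0.576) against the non-irradiated primary. Neither passed the test, and the upper ends of both intervals stay well under a doubling. The gene is read by 1 spot per array.

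Osmr encodes the chain that pairs with gp130 to receive oncostatin M, and lies at chr2:57634517-57688802. The measured level was -5.998, -6.26 and -5.86 in nodules 1, 2 and 3, against -6.35 in the irradiated and -6.08 in the non-irradiated primary. In nodule 3 both of its spots were well above background, in nodules 1 and 2 only 1 of them was, and in both primaries 0 were. The gene was therefore left out of the test, and no fold is given.

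Stat3, the transcription factor on which these receptors converge, was the member that separated nodules from primaries most evenly. It lies at chr10:86311528-86363513. Its level was 0.81, 0.69 and 0.59 in nodules 1, 2 and 3, against 1.20 in the irradiated and 1.26 in the non-irradiated primary. All 3 nodules were below both primaries, as were 19.2% of all features, and the nodules spread over less than the gap to either primary. The nodule mean was 0.70 ± 0.11 (SD, n = 3).

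Against the irradiated primary Stat3 differed by -0.50 (95% interval -0.87 to -0.13, 1.41-fold lower, adjusted p = 0.141 in limma). Against the non-irradiated primary it differed by -0.57 (95% interval -0.94 to -0.20, 1.48-fold lower, adjusted p = 0.055). The second value lies just outside the threshold, among features of which 18.6% were called. When a nodule was left out the adjusted p in limma ran from 0.0312 to 0.374 against the irradiated and from 0.0118 to 0.171 against the non-irradiated primary. Both passed only without nodule 1, where 3188 and 6405 of 18899 features were called. The primaries differed by -0.07, so the irradiated and the non-irradiated tumour were nearly level for Stat3. The gene is read by 1 spot per array, and skeletal muscle genes also were lower in the nodules than in both primaries. The part of muscle in the Stat3 level was not tested.

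Socs3, the feedback inhibitor and an immediate target of Stat3, lies at chr10:103692579-103695975. The level was -1.86, -1.77 and -2.04 in nodules 1, 2 and 3, against -1.82 in the irradiated and -2.13 in the non-irradiated primary. The irradiated primary lay inside the range of the nodules and the non-irradiated primary just below it, and the whole range over 5 arrays was 0.36. The differences were -0.07 (95% interval -0.57 to 0.43, adjusted p = 0.869 in limma) against the irradiated and 0.23 (-0.26 to 0.73, adjusted p = 0.426) against the non-irradiated primary. The sign of the first turned with median scaling of the arrays, which gave 0.02. The irradiated primary exceeded the non-irradiated one by 0.30. The arrays did not fall in the order seen for Stat3, whose nodule levels were all below both primaries.

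With a range that narrow, many genes resemble the Socs3 profile. Of 10911 candidates the closest 5 were Gmfg, Lpar3, Agpat1, Nifk and Bcorl1, at root mean square differences of 0.0295 to 0.0374.

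**Figure D3:**
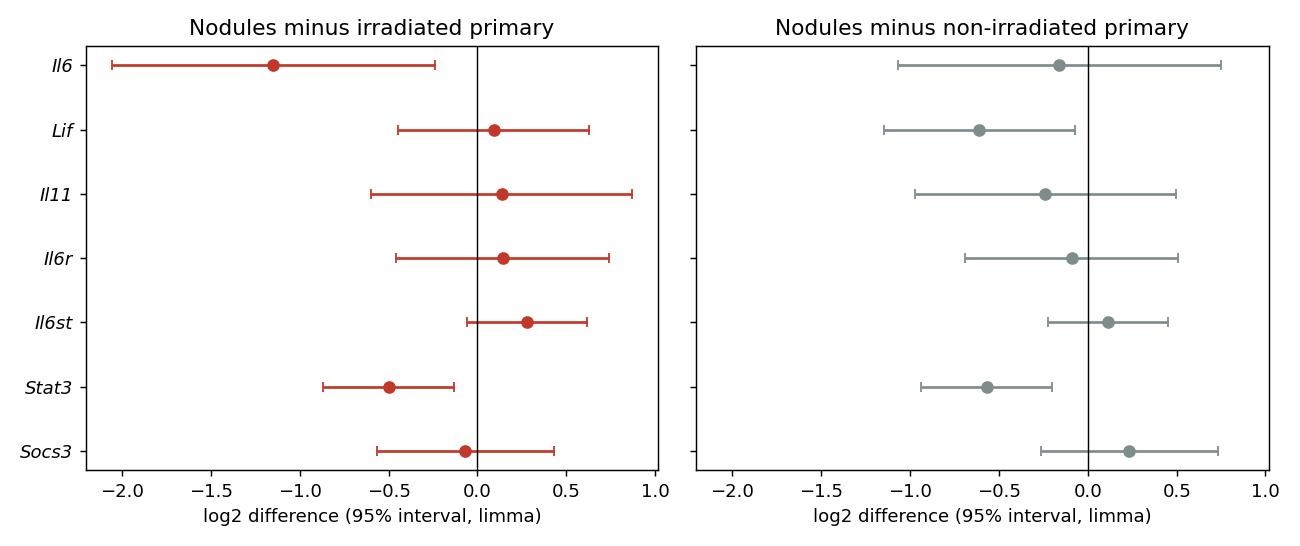
Log2 difference of the mean of 3 nodules from the irradiated primary (left panel) and from the non-irradiated primary (right panel) for the 7 tested members, with 95% intervals from limma. The intervals of Il6 and Stat3 on the left and of Lif and Stat3 on the right exclude 0 before adjustment, and none of the 7 members passed after adjustment over all features.

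When both primaries formed 1 group of 2 arrays, 0 of 7 members were called, beside 0.0847% of features (0.00529% higher and 0.0794% lower in the nodules). At an unadjusted p under 0.05 it was 1 of 7, Stat3, beside 20.7% of features. Stat3 differed by -0.53 (95% interval -0.89 to -0.18, adjusted p = 0.137 in limma) and Il6 by -0.65 (-1.61 to 0.30, adjusted p = 0.373). The other 5 differed by -0.26 to 0.20. The spread of the primaries in this fit holds whatever irradiation changed.

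The rest of the pathway was followed through 85 further genes, listed by role. Of these, 75 were on the array and 61 were tested. In the comparison with the irradiated primary 0 were higher and 2 were lower in the nodules, Icam1 and Myc, both listed as Stat3 target genes. Set against the non-irradiated primary, 7 were higher and 5 lower. Both shares, 2 and 12 of 61, are near the 3.73 and 18.6% of all features called, and the median differences over the 61 genes were -0.06 and 0.05.

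Icam1, an adhesion molecule for leukocytes induced by Stat and NF-kB signals, showed the largest difference of the called genes on these lists. Its level was -1.84, -1.67 and -2.13 in nodules 1, 2 and 3, against 0.82 in the irradiated and 0.92 in the non-irradiated primary. It was lower in the nodules by -2.70 on the log2 scale against the irradiated (6.48-fold, adjusted p = 0.0139 in limma) and by -2.80 against the non-irradiated primary (6.96-fold, adjusted p = 0.01). With both primaries as 1 group it was the single listed gene called, at -2.75 (adjusted p = 0.0292). Without nodule 2 it missed the threshold against either primary (adjusted p = 0.0711 and 0.056), as it did against both together when any nodule was left out (adjusted p = 0.128 to 0.193).

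Upstream bases of Icam1 are shown because the gene, unlike the members, held a match to the STAT motif, and this choice was made after its values were seen. The RefSeq table places the start of the gene inside its annotated extent in GRCr8, chr8:27829688-27841618, plus strand. The first line gives the 93 bases before that extent, chr8:27829595-27829687, with the NF-kB match in capitals. The second gives 29 bases inside it, chr8:27829728-27829756, with the STAT match in capitals, 107 to 99 bases before the table's start.
Icam1: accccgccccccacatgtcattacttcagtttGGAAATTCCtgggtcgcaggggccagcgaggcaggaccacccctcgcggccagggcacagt
Icam1: ggcgcgaggtTTCCGGGAAagtggcccca

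Of 58 other pathway genes with an entry, 9 held the STAT motif and 7 held the NF-kB motif in the 250 bases before the table's start. Icam1 held both.

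Myc, a driver of growth and a known Stat3 target, had levels of -1.26, -0.71 and -0.98 in nodules 1, 2 and 3, against 0.88 in the irradiated and 0.28 in the non-irradiated primary. It was lower in the nodules by -1.86 (3.63-fold, adjusted p = 0.0365 in limma) against the irradiated and by -1.26 (2.40-fold, adjusted p = 0.0329) against the non-irradiated primary. Without nodule 2 or 3 it missed the threshold in both comparisons, at adjusted p-values of 0.0909 and 0.0976 in the first. Skeletal muscle genes ran the same way as Icam1 and Myc, lower in the nodules than in both primaries, and their part was not tested.

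Of all features, 2.81% were called lower against the irradiated primary, and 9.74% higher and 8.84% lower against the non-irradiated primary. Of 24 tested Stat3 target genes, Icam1 and Myc were called lower against each primary. Another 3 were called higher against the non-irradiated primary and not against the irradiated one. These were Hp, the acute-phase protein haptoglobin, by 1.40 (adjusted p = 0.0479 in limma), the early-response factor Fos by 1.36 (adjusted p = 0.0256) and Cebpb, a factor of acute-phase transcription, by 0.91 (adjusted p = 0.0422). The difference between the 2 comparisons was not tested for them. Hp had levels of 2.97, 2.16 and 2.61 in nodules 1, 2 and 3, against 1.03 in the irradiated and 1.18 in the non-irradiated primary. All 3 nodules were above both primaries, as were 22.3% of all features. Against the irradiated primary Hp differed by 1.55 (adjusted p = 0.0833 in limma), while Fos and Cebpb differed by -0.07 and -0.32. The median difference over the 24 genes was -0.14 against the irradiated and 0.04 against the non-irradiated primary.

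Against the non-irradiated primary, 1 of 5 tested other ligands and 1 of 2 tested other receptors were called, beside 18.6% of all features. Osm encodes oncostatin M, and had levels of -4.03, -3.95 and -4.31 in nodules 1, 2 and 3, against -4.15 in the irradiated and -2.42 in the non-irradiated primary. It was lower in the nodules by -1.68 (3.20-fold, adjusted p = 0.0211 in limma), so the non-irradiated primary was the high array for both Osm and Lif. In the authors' deposited matrix the Osm difference was -2.70. The receptor that Lif shares with gp130, Lifr, ran the other way, at -4.84, -5.21 and -5.64 in the nodules, against -5.31 in the irradiated and -7.13 in the non-irradiated primary. In the non-irradiated primary its probe was not well above background, so Lifr was at least 1.86-fold higher in the nodules (adjusted p = 0.0415 in limma), the bound being the lowest level well above background on that array. With a normexp background correction the Lifr difference was 0.22 and did not pass.

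Of 13 tested inhibitors other than Socs3, 1 was higher and 2 were lower in the nodules than in the non-irradiated primary. Over all features 9.74% were called higher and 8.84% lower there. Pias4 was higher by 1.09 (adjusted p = 0.0182 in limma). Pias2 was lower by -0.75 (adjusted p = 0.0273) and Socs5 by -0.63 (adjusted p = 0.0284). Proteins of the Pias group restrain STAT factors bound to DNA, and Socs5 belongs to the family of Socs3. Of 8 tested genes that act upstream of Il6, Tlr2, a receptor for bacterial lipoproteins, was higher by 1.49 (adjusted p = 0.0138). Of 9 macrophage genes, 3 were also called higher in the nodules than in the non-irradiated primary and 2 lower, beside 18.6% of all features. Aif1 was higher by 2.38 (adjusted p = 0.013 in limma), Adgre1 by 1.51 (adjusted p = 0.0244) and Csf1r by 1.29 (adjusted p = 0.028), while Cd163 was lower by -2.54 and Cd68 by -1.12. Aif1, Adgre1, Csf1r, Itgam and Lyz2 were lowest in the non-irradiated primary, as were Tlr2, Fos and Cebpb. Cd68, Cd14, Mrc1 and Cd163 were highest there, so the macrophage list did not run one way. The part of macrophages in the differences of Tlr2, Fos and Cebpb was not tested.

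All calls against the non-irradiated primary rest on the single array of that tumour, which was assumed to vary like the nodules. When nodule 2 was left out, 0 features were called by limma in any of its 3 comparisons, the smallest adjusted p being 0.0515 against the irradiated, 0.0545 against the non-irradiated and 0.193 against both primaries. Without nodule 3, the calls against the non-irradiated primary of Osm, Lifr, Socs5, Pias2, Pias4, Fos, Cebpb, Hp and Tlr2 were lost as well (adjusted p = 0.0534 to 0.112), as was that of Myc.

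**Figure D4:**
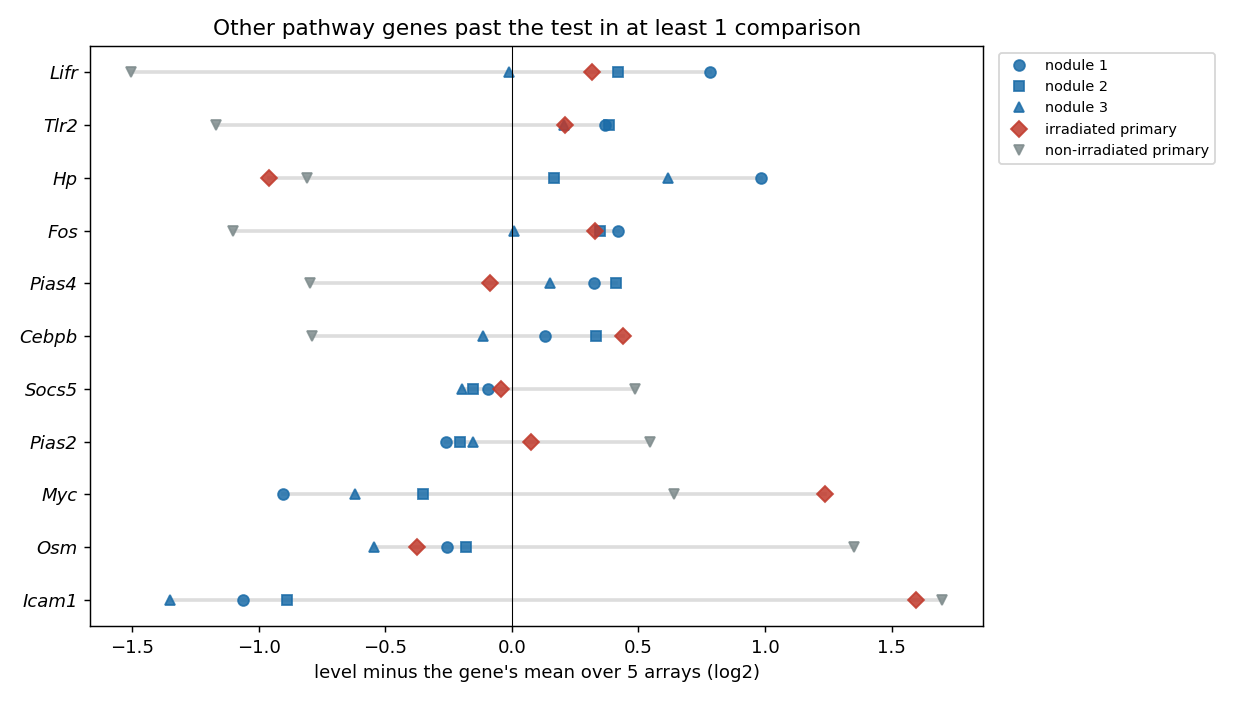
Levels of 11 listed pathway genes called in at least 1 limma comparison, each as its log2 difference from the gene's mean over the 5 arrays (x axis), with circles, squares and triangles for nodules 1, 2 and 3, diamonds for the irradiated and inverted triangles for the non-irradiated primary. Icam1 and Myc are lower in the nodules than in both primaries, while the non-irradiated primary is the low array for Lifr, Tlr2, Fos, Pias4 and Cebpb.

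Between the primaries, 13 of 61 listed genes differed by at least 1 on the log2 scale, 9 higher and 4 lower in the irradiated tumour, beside 16.4% of all features. With 1 array each there is no test. Tnf, an inducer of Il6 in many cells, had the largest measured difference, 2.83. Its level was -2.51 in the irradiated and -5.34 in the non-irradiated primary, with nodules at -4.43, -3.62 and -4.06. The Tnf difference was 1.504 with a normexp background correction. With median scaling it was 2.75, and the measured difference of A2m was larger, at -2.84. The level of Il6 was higher in the irradiated primary too, by 0.99, or 0.56 with the normexp correction. Among the nodules, nodule 1 had the lowest Tnf level and the highest Il6 level. A link between Tnf and Il6 was not tested.

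Other genes higher in the irradiated primary included Ebi3, which encodes a subunit of composite cytokines, Stat2, a factor of interferon signalling, Lifr, Fos, Cebpb and Tlr2. Stat2 differed by 1.22. The difference of Ebi3 was 1.10, or 0.44 with the normexp correction. For Lifr only a bound can be given, at least 1.76-fold higher in the irradiated primary, and with the normexp correction its difference was 0.26. Fos, Tlr2 and Cebpb differed by 1.43, 1.38 and 1.23.

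Lower in the irradiated primary were Osm (by -1.73), Socs2, A2m and Il11ra1. Socs2 was 3.19-fold lower by its measured levels, though not well above background in the irradiated primary. The acute-phase gene A2m, also not well above background there, was at least 2.89-fold lower. That bound sets its level at the lowest one well above background on that array. Il11ra1, the receptor chain for Il11, was at least 1.47-fold lower by the same reckoning. The fold of Socs2 and the bounds of A2m and Il11ra1 hold for the background-subtracted signals. With a normexp correction the differences were smaller, at -0.75 for Socs2, -0.86 for A2m and -0.41 for Il11ra1.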

How the data were processed

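Per the labels, RNeasy total RNA was labelled with Cy3 (Quick Amp). Spot intensity was deposited as background-subtracted, detrended signal, per the file headers, from Agilent Feature Extraction 11.0 (per the submitters' processing notes). The deposited flags (outlier, saturated, well above background) are other values of 0 or 1, per the file headers. The authors' deposited matrix holds log2 values of 18502 probes, with scaling and centring not given in the sources used here. Its columns all have a median of 9.74 and correlate at 0.9996 to 0.9999 with their own array.

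Here outlier spots were dropped, log2 signals averaged per probe, and each array's 75th percentile over non-control probes subtracted. Names came through RefSeq accessions (18354 of 30363 usable probes, 60.4%). Features well above background on every array of at least 1 group, with all spots flagged so, were tested. A rule asking for 50% of the spots was run first and is kept as an alternative. The 3 groups were fitted with limma 3.58.1 (R 4.3.3, trended eBayes, 2 residual degrees of freedom, all from the nodules) to set nodules against each primary, and nodules were compared with both primaries in a fit of 2 groups. Calls were made at a Benjamini-Hochberg adjusted p under 0.05. The primaries were compared with no test, at a log2 difference of at least 1. Precision is limited by the number of arrays. The fits were tested on simulated data.

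All members were named, with each listed pathway gene called by limma or past the fold between the primaries, and the 5 genes most alike to Il6 and to Socs3. A few genes that this rule covers are not reported here. Members and lists were chosen with earlier results of these data known. Marker lists covered macrophage, neutrophil, T and NK, endothelial, fibroblast, skeletal and cardiac muscle, alveolar and club, glioma and glial, and adipocyte genes. Summed levels of the tested genes are given for the nodules, against the irradiated and the non-irradiated primary. For 2 of 6 measured neutrophil genes, Csf3r and Camp, they were 0.110 to 0.286, against 0.0827 and 0.117. For 3 of 6 measured endothelial genes they were 1.25 to 3.77, against 0.951 and 0.752. For 5 of 7 fibroblast genes they were 65.1 to 92.1, against 62.7 and 32.2. The 8 tested of 10 glioma and glial genes, led by Vim, gave 51.2 to 79.5, against 56.8 and 60.7. Of 4 measured adipocyte genes only 1 was tested, Fabp4, at 0.0401 to 0.227, against 0.0632 and 0.018.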

Additional observations from a re-analysis of the deposited data

How the results depend on the processing

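No member was called in any limma comparison under the 9 processing alternatives, 1 of which (the rule on spots) was chosen after seeing the data. Signs turned only for members that passed no test. With median scaling Socs3 against the irradiated primary became 0.0242 and Il11 against both primaries 0.0021, and with quantile normalization Il11 became 0.0036. When a nodule was left out, differences from the irradiated primary ran from -0.1304 to 0.0073 for Socs3 and from -0.0002 to 0.2385 for Il6r, and those of Il6r from the non-irradiated primary from -0.2317 to 0.0069. Against both primaries, leaving out 1 of the 5 arrays gave -0.2383 to 0.136 for Il11 (0.0774 without nodule 3), -0.116 to 0.1416 for Il6r (-0.09 without the irradiated primary), -0.6108 to 0.0909 for Lif and -0.0685 to 0.2347 for Socs3. Called features against the irradiated primary were 704, with 438 under median scaling and 399 without an intensity trend, and 0 to 3188 when a nodule was left out. Against the non-irradiated primary they were 3511, and 0 to 6405 when a nodule was left out. Against both they were 16, with 94 under median scaling, 87 under normexp, 4 without a filter on dim probes, 39 among probes well above background on all 5 arrays and 7 in the deposited matrix, and 0 to 3533 when an array was left out. Members called then ranged from 0 to 2 against the irradiated, 0 to 1 against the non-irradiated and stayed at 0 against both primaries. Between the primaries 3032 features passed the fold, and 1495 with normexp. Pathway calls lost under processing alternatives were Hp in 5, Myc (each primary), Cebpb and Lifr in 2, and Icam1 (both primaries), Pias2 and Socs5 in 1, the cause being untested. Osm differed by -2.70 from the non-irradiated primary in the deposited matrix. Lifr, dim in that primary, differed by 0.22 with normexp. Each member has 1 probe, so other probes could not be tried, and with 1 slide no slide block could be fitted. No paired analysis was possible because each primary is 1 array, so the groups share fewer than 2 replicate numbers.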
